A study of Mus musculus with 4 samples.

Results

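Matrix metalloproteinases and their tissue inhibitors were followed as 1 family of 10 genes, 7 metalloproteinases (Mmp2, Mmp3, Mmp10, Mmp11, Mmp13, Mmp14 and Mmp15) and 3 inhibitors (Timp1, Timp2 and Timp3). A gene was included by its symbol, through the probe sets annotated to it, and the brightest of these on average over the arrays stood for the gene. Of the 10 genes, 9 had such a probe set, among 18193 genes with one on the array; Mmp15, a membrane-type metalloproteinase, was not analysed here. The 9 genes had 20 probe sets in all.

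Matrix metalloproteinases are zinc-dependent proteases that cut collagens, gelatin, proteoglycans and other proteins outside the cell. They are made as inactive precursors and are switched on when the propeptide is removed, either by other proteases or, for members with a furin recognition site, inside the secretory pathway. TIMPs bind the active site of the mature enzymes and block it. In the brain these proteases are known for remodelling the matrix around vessels and migrating cells, and many gliomas express several of them.

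The arrays compared a pair of sublines of mouse neural stem cells, with 2 arrays each. Both sublines came from the embryonic day 14.5 telencephalon of C57BL/6 mice of genotype p53-/-. They were grown as floating spheres with PDGF and bFGF, transfected with pCMS-EGFP-HRasL61, which encodes GFP and an activated HRas, together with pBabe-neo, selected in 0.5 mg/ml neomycin and sorted for GFP. By the labels the GIC subline (glioma-initiating cell-like) was tumorigenic and the non-GIC subline was nontumorigenic; the loss of p53, the activated HRas and the drug selection were therefore shared by both. Untransfected stem cells were not among the samples. Each value is a log2-scale signal of 1 probe set, and differences are GIC minus non-GIC. Whether the arrays within a subline hold separate cultures or clones is not in the labels; each array carries a code of its own whose meaning is not given. The spread behind each p-value may therefore be technical or lie between cultures or clones.

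Array medians lay between 6.58 and 6.63, and with 2 arrays in a group precision is limited throughout. The test covered 13366 genes with 2 or more arrays over a filter level of 5.97, the 40th percentile of the table. Of 8 neural stem and progenitor markers 7 were tested; Prom1 lay below that level on every array, as did the leukocyte genes Ptprc, Aif1 and Itgam, the endothelial genes Pecam1, Cdh5 and Tek, and Olig1, Olig2 and Mog. Among the cell type markers tested, the progenitor genes Nes (log2 fold change -2.07, limma adjusted p = 0.0459) and Fabp7 (-1.51, 0.0258; over the level in non-GIC alone) and the neuronal Map2 (-2.29, 0.019) were lower in GIC, and Cd14, a leukocyte gene, was higher (1.30, 0.037). The other 5 tested progenitor genes did not pass, with differences from -0.90 for Sox2 to -0.01 for Vim. Neither did the neuronal Tubb3 (1.15), Rbfox3 (0.02) and Stmn2 (-0.18), or the leukocyte genes Csf1r (-0.30) and Cd68 (0.53). All 7 tested progenitor genes thus had a negative difference, with a median of -0.44, though for some it was small. The neuronal and leukocyte lists held genes of either direction. The endothelial Flt1 (0.92, limma adjusted p = 0.165) and the oligodendrocyte progenitor gene Pdgfra (2.26, 0.0504) did not pass. The 4 Flt1 probe sets, all over the level on every array, gave 0.92 to 1.77. The part of these marker differences in the protease values was not tested. Of 8 mural and fibroblast markers 6 were tested, and Rgs5 and Lum lay below the level on every array. The smooth muscle actin Acta2 was lower in GIC (log2 fold change -1.71, limma adjusted p = 0.0348), and the other 5 tested did not pass. Another Acta2 probe set, over the level in non-GIC alone, gave -3.68, and the remaining one, below it on every array, gave -0.65. The size of the Acta2 difference thus depended on the probe set. The mean level of these 8 markers was 9.62 and 9.86 in non-GIC, while GIC replicate 1 had 10.10 and GIC replicate 2 had 9.02.

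Mmp13, the interstitial collagenase, was the single member that passed the test, and it was higher in GIC. The inhibitor Timp3 and the stromelysins Mmp3 and Mmp10 lay higher on both GIC arrays than on either non-GIC array, without passing; their group means differed by 1.28 to 2.40 on the log2 scale. Stromelysin-3, Mmp11, had the same order by a narrow margin. The gelatinase Mmp2, its membrane-bound activator Mmp14, and the inhibitors Timp1 and Timp2 had overlapping groups. In all, 1 of 9 members passed, against 1.92% of all tested genes (1.23% higher and 0.688% lower); that member, Mmp13, entered the test through the GIC arrays alone, so the count supports nothing about the family. The groups did not overlap, with GIC above, for 5 of the 9, against 25.5% of tested genes, and with GIC below for none, against 24.9% (50.4% either way). An unadjusted p under 0.05 was reached by 4 of the 9, against 17.9%. The median difference of the 9 was 1.28, and that of all tested genes -0.01. Mmp13 is part of each of these counts and of the median. The members were also chosen with earlier results of these data known. The counts and the median therefore describe these genes and support nothing about the family. The test was limma's moderated test, two-sided, with Benjamini-Hochberg adjustment over all 13366 genes. For 1 gene alone, permuting 2 arrays against 2 exactly can reach no p under 0.333.

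**Figure D1:**
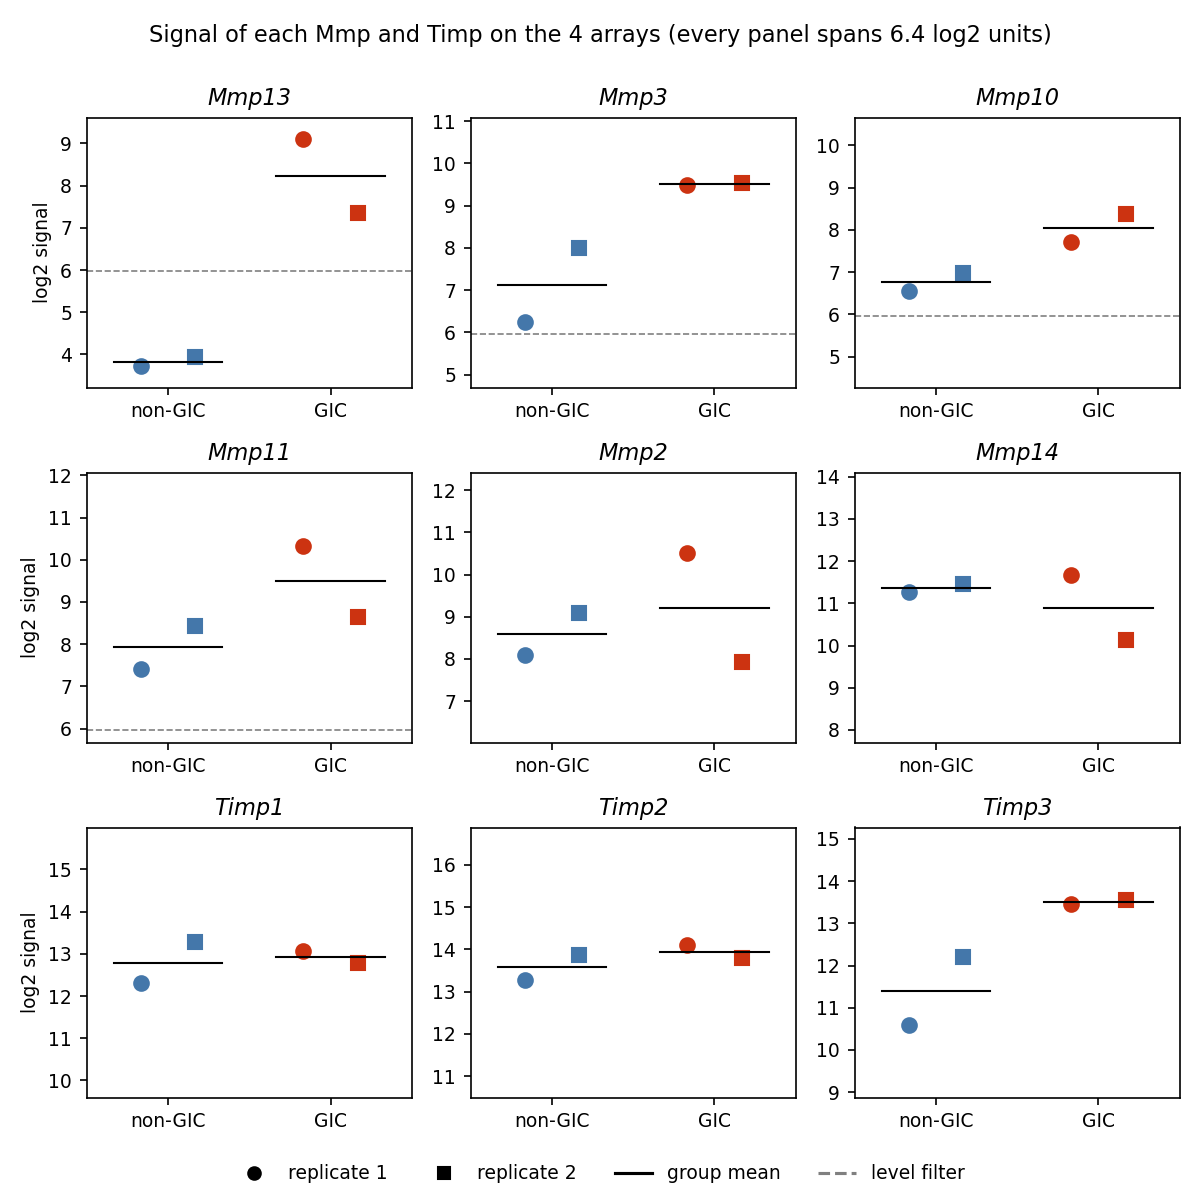
Log2 signal of the 9 measured members on the 4 arrays, with circles for replicate 1, squares for replicate 2, a black line at each group mean and a dashed line at the level filter of 5.97 where it falls in the panel. Mmp13 is the single gene whose non-GIC points both lie under the filter, and in Mmp2 the GIC points, at 10.51 and 7.92, lie on both sides of the non-GIC points.

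The collagenase Mmp13 cuts fibrillar collagens and is a known product of cartilage, bone and many tumours. Its signal was 3.72 and 3.94 in non-GIC, against 9.11 and 7.36 in GIC. Both GIC arrays were far above both non-GIC arrays, and the GIC arrays differed from each other by 1.75. In such bulk samples, more cells that express a gene and more RNA per cell cannot be told apart. The GIC mean of 8.23 ± 1.24 stood against 3.83 ± 0.15 in non-GIC (SD, n = 2), a log2 fold change of 4.40 (95% interval 2.88 to 5.93) or 21.2-fold, with a limma adjusted p of 0.0471. Of all tested genes 99.9% had a lower log2 fold change. Mmp13 passed the level filter only through the GIC arrays, and it has 1 probe set. Its non-GIC values lay under the filter level, where both the fold and the spread may read too small. The call was lost without a level filter (limma adjusted p = 0.0504) and without an intensity trend (0.0608). It was also lost without probe sets of less specific design (0.0508). At the 60th percentile filter Mmp13 was not tested. Without non-GIC replicate 1 or non-GIC replicate 2 the call was lost too, with log2 fold changes of 4.29 and 4.51. There the spread came from the GIC arrays alone, which were 1.75 apart. The log2 fold change was 3.53 without GIC replicate 1 and 5.28 without GIC replicate 2. In these fits the spread came from the non-GIC arrays alone, both under the filter level. They therefore cannot show that the call holds.

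Stromelysin-1, Mmp3, degrades proteoglycans, fibronectin and basement membrane proteins and activates other metalloproteinases. Its signal was 6.23 and 8.00 in non-GIC, against 9.49 and 9.54 in GIC. The GIC arrays lay close together and the non-GIC arrays were 1.77 apart, so most of the spread came from the lower group. This gave 2.40 as log2 fold change (95% interval 0.85 to 3.95; limma adjusted p = 0.146), which did not pass over all genes. It was 1.52 without non-GIC replicate 1 (adjusted p = 0.167) and 3.28 without non-GIC replicate 2, where it passed (0.0459).

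Stromelysin-2, Mmp10, is a close relative of Mmp3 with similar substrates. Its signal was 6.55 and 6.97 in non-GIC, against 7.71 and 8.37 in GIC. The groups did not overlap, and here the higher GIC array was replicate 2, unlike for Mmp13 and Mmp11. Its log2 fold change of 1.28 (95% interval 0.54 to 2.02; limma adjusted p = 0.127) did not pass.

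Mmp13, Mmp3 and Mmp10 belong to the metalloproteinase cluster on chromosome 9. In the gene table of assembly GRCm38.p6 the cluster spans 13 genes, of which 10 are metalloproteinases, in the order Mmp13, Mmp12, Mmp1b, Mmp3, Mmp1a, Mmp10, Mmp8, Mmp27, Mmp20 and Mmp7. Of these 10 genes 9 had a probe set and 4 were tested. The macrophage elastase Mmp12, the collagenases Mmp1a, Mmp1b and Mmp8, and the enamel protease Mmp20 lay below the filter level on every array, with differences between the sublines from -0.08 for Mmp20 to 0.32 for Mmp12. Matrilysin, Mmp7, was 6.59 and 6.63 in non-GIC, against 6.58 and 6.53 in GIC, a log2 fold change of -0.05 (limma adjusted p = 0.842). The higher GIC signals therefore lay at 3 genes separated by genes whose probe sets stayed low in both sublines.

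**Figure D2:**
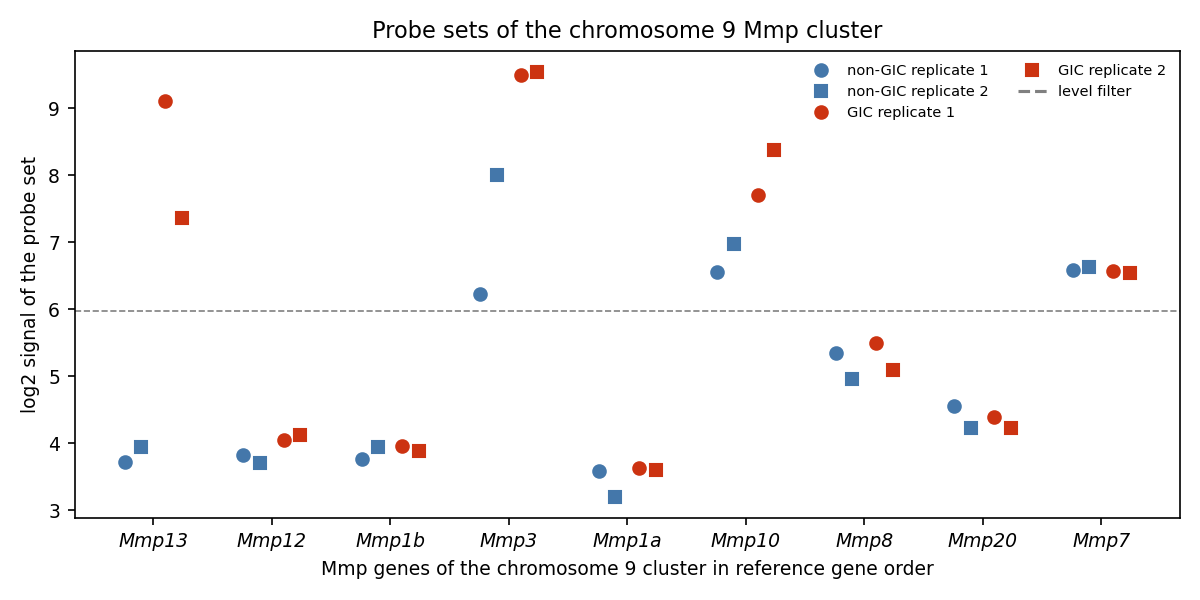
Log2 signal of the 9 measured genes of the chromosome 9 metalloproteinase cluster, in reference gene order along the horizontal axis, on the 2 non-GIC arrays (blue) and the 2 GIC arrays (red), with the level filter of 5.97 dashed. Levels of different probe sets are not comparable, so only the spread within a gene is to be read. Mmp13, Mmp3 and Mmp10 separate by subline with GIC above, by 0.74 (Mmp10) to 3.42 (Mmp13). Mmp12 and Mmp1a, below the filter on every array, separate in that direction by 0.22 and 0.02. The points of Mmp7 lie within 6.53 to 6.63, with the GIC points just below the non-GIC points.

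The promoters of Mmp13, Mmp3 and Mmp10 are shown because these genes share a cluster and a direction, Mmp1a because it lies between them with a low signal in both sublines, and Timp3 because it had the largest difference outside the cluster. Each sequence is the 250 bases before the gene's start, 5′ to 3′ on the gene's own strand, from RefSeq on GRCm38.p6. The windows are chr9:7272264-7272513 for Mmp13, chr9:7445572-7445821 for Mmp3, chr9:7502092-7502341 for Mmp10, chr9:7463891-7464140 for Mmp1a and chr10:86300162-86300411 for Timp3, all on the plus strand. Capitals mark TGANTCA, the letters bound by AP-1 (Fos and Jun dimers), and TATAAA, the TATA box.
Mmp13: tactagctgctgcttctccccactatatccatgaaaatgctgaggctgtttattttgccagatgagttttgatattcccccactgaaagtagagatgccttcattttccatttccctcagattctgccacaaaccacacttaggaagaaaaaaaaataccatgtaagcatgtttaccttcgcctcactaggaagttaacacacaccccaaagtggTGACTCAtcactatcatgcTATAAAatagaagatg
Mmp3: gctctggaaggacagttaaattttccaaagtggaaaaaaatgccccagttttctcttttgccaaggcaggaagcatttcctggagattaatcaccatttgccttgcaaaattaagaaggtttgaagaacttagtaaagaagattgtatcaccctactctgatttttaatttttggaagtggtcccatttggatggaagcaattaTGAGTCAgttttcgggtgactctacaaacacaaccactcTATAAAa
Mmp10: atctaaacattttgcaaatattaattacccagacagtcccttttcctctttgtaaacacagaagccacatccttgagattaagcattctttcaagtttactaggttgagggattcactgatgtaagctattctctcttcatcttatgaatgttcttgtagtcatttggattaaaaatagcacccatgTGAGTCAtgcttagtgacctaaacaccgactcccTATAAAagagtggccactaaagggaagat
Mmp1a: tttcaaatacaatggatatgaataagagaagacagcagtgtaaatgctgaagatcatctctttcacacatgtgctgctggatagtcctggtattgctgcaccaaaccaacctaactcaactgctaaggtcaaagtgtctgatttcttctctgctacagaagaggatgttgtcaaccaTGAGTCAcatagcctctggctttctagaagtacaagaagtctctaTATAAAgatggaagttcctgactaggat
Timp3: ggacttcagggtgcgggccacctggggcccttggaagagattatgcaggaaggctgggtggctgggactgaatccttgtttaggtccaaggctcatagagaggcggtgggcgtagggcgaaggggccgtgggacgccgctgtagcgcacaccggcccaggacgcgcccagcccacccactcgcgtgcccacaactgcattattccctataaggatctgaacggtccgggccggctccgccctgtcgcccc
TGANTCA reads the same on both strands apart from its middle base, so both strands were searched and each position was counted once, while TATAAA was searched on the gene's strand alone. The AP-1 letters begin 35 bases before the start of Mmp13, 46 bases before that of Mmp3 and 63 bases before that of Mmp10. No match overlaps the TATA letters, which begin 16, 7 and 29 bases before these annotated starts. The distances depend on where each start was placed and are not compared between genes. Of the 9 members with a promoter in the table, these 3 held TGANTCA and the same 3 held TATAAA; none of the 6 outside the cluster (Mmp11, Mmp14, Mmp15, Timp1, Timp2 and Timp3) held either. Of all 32851 promoter windows of that length 6.75% held TGANTCA, 7.59% held TATAAA and 0.791% held both. Within the cluster 8 of 10 metalloproteinases had TGANTCA in at least 1 window, including Mmp1a, Mmp1b, Mmp12 and Mmp20, whose signal was low in both sublines. The match thus did not separate the genes that were higher in GIC from their neighbours. The letters AGGAAG, read by ETS factors, were found on either strand in 5 of the 9 members (29.5% of all windows) and TGTGGT, read by Runx factors, in Mmp13 and Mmp14 (14% of all windows). A match describes letters in a window and not a bound site.

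Stromelysin-3, Mmp11, carries a furin recognition site and is secreted in active form. Its signal was 7.41 and 8.44 in non-GIC, against 10.33 and 8.65 in GIC. GIC replicate 2 lay 0.21 above the higher non-GIC array, so the separation of the groups rested on a margin smaller than the gap within either group. Between the means the log2 difference was 1.56 (95% interval -0.15 to 3.28; limma adjusted p = 0.315), and it was 0.73 without GIC replicate 1 and 2.40 without GIC replicate 2.

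Gelatinase A, Mmp2, cuts denatured collagen and the type IV collagen of basement membranes. It is activated at the cell surface by Mmp14, with Timp2 as the bridge that holds it there. Mmp2 was 8.09 and 9.08 in non-GIC, against 10.51 and 7.92 in GIC. GIC replicate 1 was the highest array and GIC replicate 2 the lowest, and the log2 fold change was 0.63 (95% interval -1.76 to 3.03; limma adjusted p = 0.775). It was -0.66 without GIC replicate 1 and 1.93 without GIC replicate 2, so its direction depended on 1 array.

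Mmp14, a membrane-anchored collagenase, was 11.27 and 11.46 in non-GIC, against 11.66 and 10.14 in GIC. Here too GIC replicate 1 was the highest array and GIC replicate 2 the lowest. The log2 fold change was -0.47 (95% interval -1.83 to 0.89; limma adjusted p = 0.696), and it was 0.29 without GIC replicate 2 and -1.23 without GIC replicate 1. These intervals include more than a 2-fold difference either way for Mmp2, and a decrease of that size for Mmp14, so similar levels in the sublines are not shown.

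Mmp2, Mmp11, Mmp13 and Mmp14 all had a lower signal on GIC replicate 2 than on GIC replicate 1, by 1.52 (Mmp14) to 2.59 (Mmp2). Of the 8 mural and fibroblast markers 6 were also lower on GIC replicate 2, against 50.7% of tested genes, and Rgs5 and Cspg4 were not. Lum, among the lower ones, lay below the filter level on every array. In the other lists it was 5 of 6 endothelial, 4 of 5 astrocyte, 4 of 5 neuronal, 5 of 8 progenitor, 4 of 7 leukocyte and 3 of 5 oligodendrocyte markers. The direction was thus not particular to the mural and fibroblast list, but the falls were larger there. No marker of the other lists fell by more than 0.42 (Pdgfra) from GIC replicate 1 to GIC replicate 2. The 6 lower markers of the mural and fibroblast list fell by 0.51 (Acta2) to 2.89 (Col1a1). In that list Col1a1, a chain of type I collagen, was 13.59 and 10.70 on GIC replicates 1 and 2. Col3a1, the type III collagen, was 13.89 and 11.32, and the PDGF receptor Pdgfrb 12.56 and 11.18. Col1a2, the other chain of type I collagen and not on the marker list, was 11.55 and 11.72. Mmp3, Mmp10 and Timp3 were not lower on GIC replicate 2, and they differed between the GIC arrays by 0.05, 0.66 and 0.10. The part of these marker genes in the protease values was not tested.

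Timp3 binds to the extracellular matrix and also inhibits several ADAM and ADAMTS proteases. Its signal was 10.59 and 12.21 in non-GIC, against 13.45 and 13.55 in GIC. As for Mmp3, the GIC arrays were close and non-GIC replicate 1 was the lowest of the 4. The log2 fold change was 2.10 (95% interval 0.68 to 3.52), or 4.29-fold, with a limma adjusted p of 0.159, which did not pass. It was 1.29 without non-GIC replicate 1 (adjusted p = 0.184) and 2.91 without non-GIC replicate 2 (0.0522). All 4 probe sets of Timp3 gave a difference between 2.08 and 2.14.

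Timp2 both inhibits metalloproteinases and takes part in the activation of Mmp2. It was 13.28 and 13.87 in non-GIC, against 14.10 and 13.79 in GIC. The groups overlapped, since non-GIC replicate 2 lay above GIC replicate 2, and the log2 fold change was 0.36 (95% interval -0.27 to 0.995; limma adjusted p = 0.504). The 5 probe sets past the filter gave 0.30 to 0.53, and the sixth, below the filter level on every array, gave -0.41.

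Timp1, a secreted inhibitor that also acts as a growth factor in some cells, was 12.30 and 13.28 in non-GIC, against 13.06 and 12.78 in GIC. Both GIC arrays lay between the non-GIC arrays. A log2 fold change of 0.13 resulted (95% interval -0.80 to 1.05; limma adjusted p = 0.888), whose interval leaves room for a change of about 2-fold upward. It was -0.37 without non-GIC replicate 1 and -0.02 without GIC replicate 1.

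**Figure D3:**
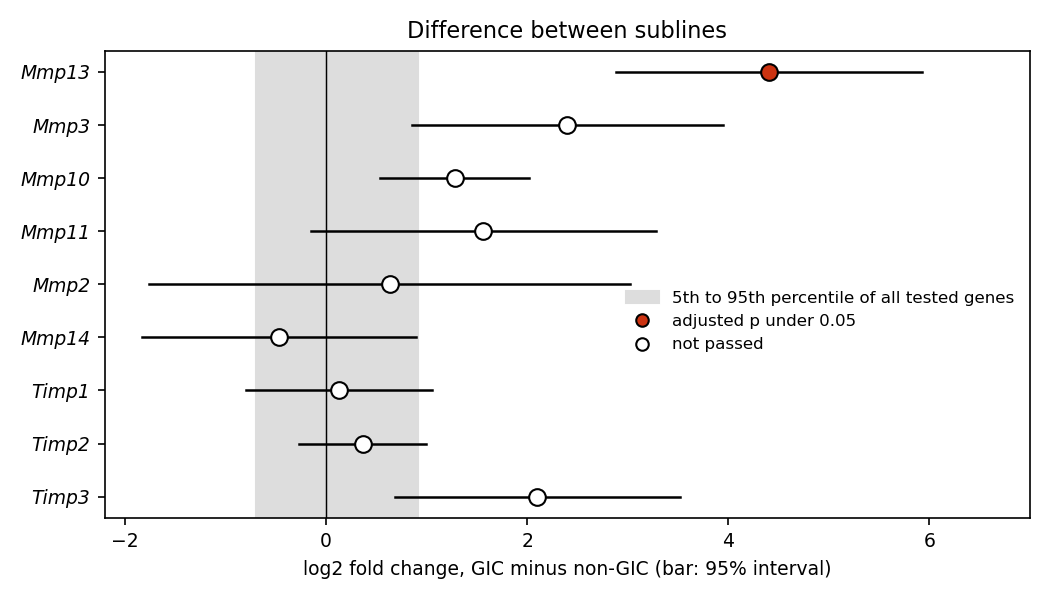
Log2 fold change of the 9 measured members, GIC minus non-GIC, with bars for limma's 95% intervals and a grey band from the 5th to the 95th percentile of all tested genes (-0.70 to 0.92). Mmp13 at 4.40 is filled because it passed the test; the intervals of Mmp3, Mmp10 and Timp3 also lie above 0 but their adjusted p-values, 0.127 to 0.159, did not pass over all genes.

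Probe sets of the same gene gave like differences wherever they lay above the filter. Both Mmp2 probe sets gave 0.63 and 0.70, and the 3 Mmp14 probe sets gave -0.57 to -0.47. The differences between arrays of the same subline recurred as well: GIC replicate 2 was lower than GIC replicate 1 by 2.57 and 2.59 in the Mmp2 probe sets and by 1.38 to 1.52 in those of Mmp14. Non-GIC replicate 2 was above non-GIC replicate 1 by 1.54 to 1.70 in the Timp3 probe sets. Probe sets share the RNA sample and the array, so they check the probes and are no replicates of the sublines.

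**Figure D4:**
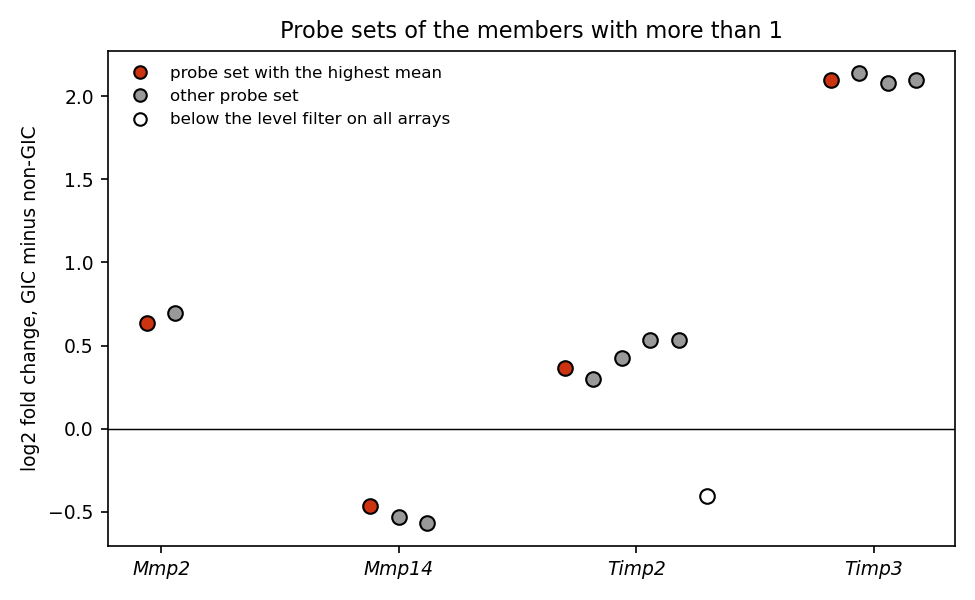
Log2 fold change, GIC minus non-GIC, of every probe set of Mmp2, Mmp14, Timp2 and Timp3, with the probe set that represents the gene in red, others in grey and the probe set below the filter on every array in white. The 4 Timp3 points lie between 2.08 and 2.14, and the white Timp2 point, at -0.41, is the single one on the other side of 0 from its gene.

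The members varied more between arrays of the same subline than the typical gene. The median size of the difference between the non-GIC arrays was 0.98 for the 9 members and 0.18 for all tested genes, and between the GIC arrays it was 0.66 and 0.20. All 9 measured members were lower on non-GIC replicate 1 than on non-GIC replicate 2, which held for 48.0% of tested genes. Non-GIC replicate 1 was the lowest of the 4 arrays for 7 of the 9, against 27.1% of tested genes; the exceptions were Mmp2 and Mmp14, for which GIC replicate 2 was lowest. A difference of more than 2-fold between arrays of the same subline was found for 3 members in non-GIC (3.02% of tested genes) and 4 members in GIC (3.16%). These values carry no test, since the genes share the same 4 arrays.

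**Figure D5:**
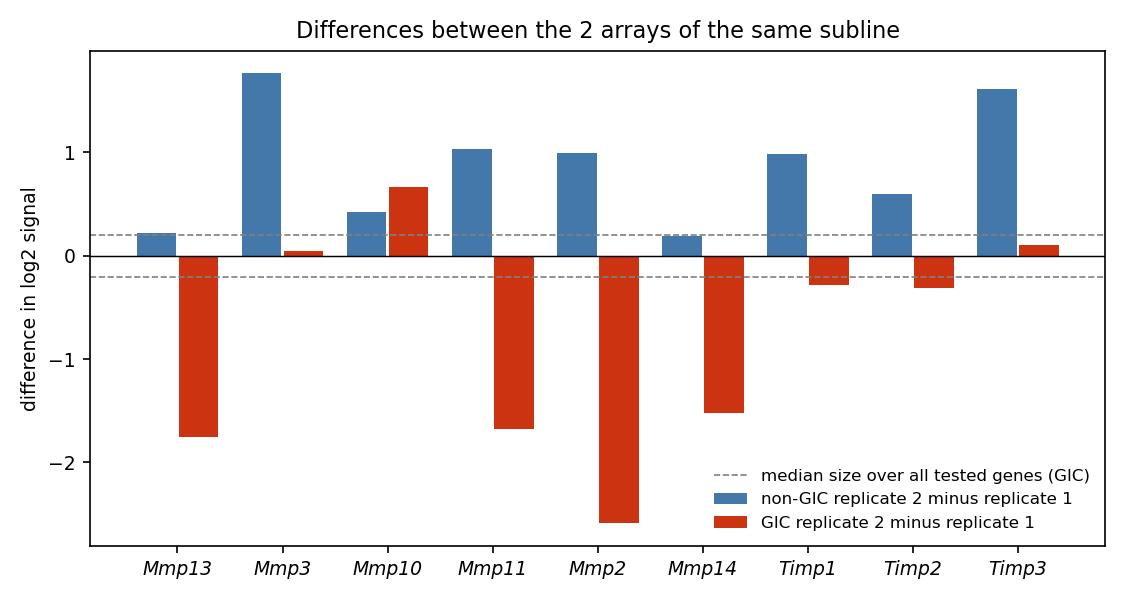
Difference in log2 signal between the 2 arrays of the same subline, replicate 2 minus replicate 1, for non-GIC (blue) and GIC (red), with dashed lines at the median size over all tested genes in GIC, 0.20. All 9 blue bars point up, from 0.19 for Mmp14 to 1.77 for Mmp3, and the red bars reach -2.59 for Mmp2.

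Other metalloproteinases and Timp4 did not pass: of 17 listed, 13 had a probe set and 8 were tested, with a median difference of 0.01. The smallest p-values were those of Mmp17, a membrane-type enzyme (log2 fold change -0.37, limma adjusted p = 0.351), and Mmp19 (0.53, adjusted p = 0.502). Gelatinase B, Mmp9, named after its values were seen, was 7.72 on non-GIC replicate 1 and 5.78 to 5.98 on the other arrays. It thus stood out on 1 array, the one on which 7 members were lowest.

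None of 8 tested ADAM proteases and none of 10 tested ADAMTS proteases passed, although an unadjusted p under 0.05 was reached by 1 and by 3 of them (17.9% of all tested genes). Adam12, a secreted or membrane-bound disintegrin protease, had a log2 fold change of -0.65 (limma adjusted p = 0.168), and Adam19 one of 1.46 (adjusted p = 0.337). Adamts9 was 8.72 and 9.87 in non-GIC, against 7.80 and 7.44 in GIC, a difference of -1.68 (adjusted p = 0.148). Adamts1, which cuts proteoglycans such as versican, was 9.32 and 8.82 against 10.51 and 9.83, a difference of 1.10 (adjusted p = 0.188). In both genes the groups did not overlap (50.4% of tested genes), and the directions were opposite. Over the 10 tested ADAMTS genes, groups did not overlap for 5 with GIC above and 1 with GIC below. The shares of all tested genes were 25.5% and 24.9%. The ADAMTS median was 0.74.

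Among 16 tested activators, inhibitors and partners of metalloproteinases 1 passed. The proprotein convertase Pcsk6, an enzyme of the furin family, was 7.16 and 7.10 in non-GIC, against 8.33 and 8.21 in GIC. It rose by 1.14 on the log2 scale, or 2.21-fold (limma adjusted p = 0.037), and the call was lost without any 1 of the 4 arrays. Furin itself had a difference of -0.10 (adjusted p = 0.842). Reck, a membrane-anchored inhibitor of metalloproteinases that was named after its values were seen, was 5.64 and 7.02 in non-GIC, against 8.96 and 8.11 in GIC. Its difference was 2.20 (adjusted p = 0.146), and it did not pass. On non-GIC replicate 1 it lay under the filter level. Thbs1 (1.30, adjusted p = 0.0788) and Thbs2 (-1.25, 0.0789) had smaller p-values than Reck. They did not pass either, and their directions were opposite. The median of these 16 genes was 0.12.

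Of 14 tested transcription factors of the AP-1, ETS and Runx families 1 passed, Runx3, at 5.19 and 5.58 in non-GIC, against 9.99 and 10.22 in GIC. Its log2 fold change was 4.72 (limma adjusted p = 0.00722). Runx3 entered the test through the GIC arrays alone, with both non-GIC arrays under the filter level, and the call was lost without non-GIC replicate 1. Its other probe set, above the filter on every array, gave 0.41, and the mean of both gave 2.56 (adjusted p = 0.012), so the size of the difference depended on the probe set. The 13 others did not pass, and the median of the 14 was 0.14. Among the 13, Fosl2 (0.93, limma adjusted p = 0.14) and Jun (0.62, 0.169) had the smallest p-values, with groups that did not overlap. The other Fosl2 probe set gave 0.14, with overlapping groups. Groups did not overlap for 5 of the 14 with GIC above and 1 with GIC below (25.5% and 24.9% of tested genes). Those of Fos, Fosl1 and Ets1 overlapped.

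None of 21 tested matrix proteins that metalloproteinases or their relatives cut passed, and their median was 0.00. Versican, Vcan, a hyaluronan-binding proteoglycan, was 10.36 and 9.99 in non-GIC, against 8.43 and 8.75 in GIC, a difference of -1.58 (limma adjusted p = 0.0517). It passed with median centring (0.0494) and with the filter at the 60th percentile (0.0493). The cartilage collagen Col2a1 had a difference of 0.80 (adjusted p = 0.124). Col3a1 had a difference of 0.77 on all arrays (limma adjusted p = 0.692) and of 2.06 without GIC replicate 2.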

How the data were processed

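RNA of 2 GIC and 2 non-GIC samples was hybridised to 1 oligonucleotide array each, after biotin labelling of 5 µg of total RNA, per the labels. The deposited table holds log2-scale values for 45101 probe sets; the scale was read from the values (2.75 to 15.12), and for background correction, summarisation and normalization no method was stated in the labels; detection calls were not used. Probe sets were named through the platform annotation, with symbols updated by Entrez identifier (34741 of 34945 with 1 gene); those with several genes (932), none (9160) or controls (64) were left out. The test was limma 3.58.1 under R 4.3.3 (eBayes with intensity trend, group as the only term, 2 residual and 2.72 prior degrees of freedom; threshold 0.05), checked on simulated data. All members were named; of each of 6 related lists (107 genes), genes that passed or else the 2 with the smallest p. Members and lists were chosen with earlier results of these data known. Alternatives changed block, scaling, filter, probe set, eBayes and arrays. Where an alternative leaves a lone array in a group, its spread is taken from the other group. Figures used matplotlib 3.10.9.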

Additional observations from a re-analysis of the deposited data

How the results depend on the processing

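Over 135 recomputed member differences, 123 kept their direction and their side of the threshold, 6 lost the call (all Mmp13), 2 gained it and 4 turned sign without a call. With 1 array left out, Mmp2 ranged from -0.66 (without GIC replicate 1) to 1.93, Mmp14 from -1.23 to 0.29 (without GIC replicate 2), and Timp1 from -0.37 (without non-GIC replicate 1) to 0.62, with -0.02 without GIC replicate 1. Members that passed numbered 0 with no level filter, with the filter at the 60th percentile (where Mmp13 is not tested), when probe sets of less specific design (suffix _x_at or _s_at) were dropped, and without an intensity trend. With 1 array left out, the spread of the lone array's group is taken from the other group. Calls gained or kept in such fits, for Mmp13 or Mmp3, therefore do not show that a call holds. The count over all genes, 257 (165 higher, 92 lower), ranged from 12 to 188 with 1 array left out (5 to 142 higher, 7 to 46 lower).

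Arrays with the same replicate number did not deviate together (r = -0.32 over tested genes), and the labels give only a number. With the replicate block 29 genes passed (21 higher, 8 lower), 0 members (Mmp13 adjusted p = 0.129) and 0 activators and partners. A crossed replicate block, chosen after seeing the data, gave 685 genes (457 higher, 228 lower), 2 members, 1 ADAMTS protease, 4 activators and partners and 1 matrix protein.

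Among matrix proteins 1 passed with median centring and 1 with the filter at the 60th percentile. With 1 array left out, 0 to 1 ADAMTS proteases, 0 to 1 transcription factors and 0 to 1 matrix proteins passed, and 0 activators and partners. The causes of these changes were not tested. Signals under the filter level, as for Mmp13 in non-GIC, limit how large a difference can be read.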
